A study of Mus musculus with 20 samples.

Results

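The genes that encode the proteins of the cytosolic ribosome were followed through cultured mouse hippocampal neurons after a brief glutamate stimulus with added, native or chelated zinc. Members were taken by symbol: Rpl or Rps followed by a digit, or Rplp0, Rplp1, Rplp2 or Rpsa, without S6 kinase genes (Rps6k), pseudogenes and names ending in l. This gave 82 of the 24419 genes counted, 49 with large-subunit symbols and 33 with small-subunit symbols. Another 22 of the 104 symbols starting with Rpl or Rps were left out, namely 10 Rps6k genes, 6 pseudogenes and 6 names ending in l. Of the 82 members, 80 passed the low-count filter and were tested among 14411 genes. Rpl26 and Rps27rt did not pass, because both were listed at 0 counts in all 20 libraries. By symbol the rule also takes 4 genes that are not standard ribosomal protein genes. Rps19bp1 encodes a binding partner of Rps19, Rpl7l1 a relative of Rpl7, and Rps27rt and Rpl37rt are named as retrotransposed copies. The row counted as Rps27rt lies over Rps27 on chromosome 3, while the RefSeq start of Rps27rt is on chromosome 9. Its 0 counts may thus not describe that copy.

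Hippocampal tissue of C57BL6 embryos at embryonic day 18, pooled from 4 embryos, was dissociated and cultured for 10 days, with 4 µM cytosine arabinoside, which kills dividing cells, between days 3 and 6. All cultures were washed and given a pulse of 2 min, then kept at 37 °C for 90 min before lysis, and polyadenylated RNA was sequenced. The control group received salt medium only, and the glutamate group 50 µM glutamate. The zinc group received 50 µM glutamate with 10 µM ZnCl2. The TPA group received 50 µM glutamate with 10 µM tris(2-pyridylmethyl)amine (TPA), a chelator of zinc ions, after 1 min in the chelator alone. Each group held 5 libraries, which the labels call biological replicates. Since tissue was pooled, p-values here measure only the spread between these samples.

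A ribosome carries a single copy of nearly every ribosomal protein, and cells make these proteins in matched amounts. Ribosomal protein messages belong to the TOP class: they start with a C followed by an unbroken run of C and T (a 5′ terminal oligopyrimidine tract), through which mTORC1 and the RNA-binding protein LARP1 control their translation. In neurons these messages are also found in dendrites and axons. RNA sequencing measures their amount and not their translation.

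The start of transcription is shown for 9 members because that is where the tract lies. Windows run from 15 bases before to 15 bases after the annotated start in RefSeq's GRCm38.p6 annotation, the base at the start being the 16th, and are read 5′ to 3′ along the coding strand. Capitals mark the longest run of C and T that reaches within 20 bases of the start, as far as it lies in the window. Rpl7a, Rplp2 and Rps6 have a run across the start. In Rps15a, the member with the smallest p in the results, the longest run ends before the start. A shorter run, in small letters, crosses it. Rpl31 and Rpl12 varied most like the rest of the family, and Rpl15 and Rpl22l1 least like it. The Rps4x window shows no long run. It lies upstream of the counted gene (chrX:102184943-102188371), so it may not show that gene's start.
Rpl7a (chr2:26910792-26910821, plus strand): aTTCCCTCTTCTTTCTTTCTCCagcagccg
Rplp2 (chr7:141447636-141447665, plus strand): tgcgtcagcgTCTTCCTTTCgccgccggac
Rps6 (chr4:86857353-86857382, minus strand): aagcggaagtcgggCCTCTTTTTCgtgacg
Rps15a (chr7:118116133-118116162, minus strand): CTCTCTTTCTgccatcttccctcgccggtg
Rpl31 (chr1:39367836-39367865, plus strand): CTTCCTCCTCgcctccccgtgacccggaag
Rpl12 (chr2:32961697-32961726, plus strand): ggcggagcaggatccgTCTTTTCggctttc
Rpl15 (chr14:18270972-18271001, minus strand): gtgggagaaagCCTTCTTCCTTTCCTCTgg
Rpl22l1 (chr3:28805493-28805522, plus strand): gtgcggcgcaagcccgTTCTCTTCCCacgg
Rps4x (chrX:102189377-102189406, minus strand): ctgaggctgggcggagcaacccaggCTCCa

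RefSeq start windows were matched for 62 of the 82 members. A run of at least 8 C or T within 20 bases of the start was present in 31 of the 62 (50%), against 23.6% of other genes. Short pyrimidine words were searched on the coding strand only, from 20 bases before to 50 bases after the start. The letters CTTTC were in 50% of members and 10.3% of 26963 other genes. The letters CTTTT were in 21% and 8.36%, and the letters CTTCC in 37.1% and 16.2%. At least 1 of these words was in 46 of the 62 members (74.2%), against 30% of other genes and 26.8% of all windows. They can lie inside the same C and T run, so the searches overlap. The letters CCGGAAG, searched on both strands over the 300-base window, were in 38.7% of members and 9.86% of other genes. TATAAA, searched on the coding strand in the 50 bases before the start, was in 1.61% of members and 3.15% of other genes. All letters were chosen after start sequences had been seen, and a match is a description only.

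Library totals ran from 28692470 to 40934630 counts. Pairs of libraries within a group differed beyond sampling noise throughout (chi-square per degree of freedom 2.32 to 28.3), and pairs that held glutamate 4, glutamate 5, zinc 4 or zinc 5 lay between 14.2 and 28.3. Markers fixed for cell types were summed in each library, and the 5 neuronal markers reached 4380 to 5070 TPM. The 5 astrocyte markers summed to 99.9 to 141 TPM and 5 of the oligodendrocyte lineage to 16 to 24.5 TPM. The 5 microglial markers summed to 2.01 to 3.71 TPM and 5 endothelial markers to 1.97 to 3.48 TPM. Only 2 of the 5 genes in each of these last sets passed the low-count filter. Of 12 rapid immediate early genes, which mark the stimulus, 2 rose in glutamate over control, 1 in zinc over control and 7 in TPA over control (edgeR adjusted p under 0.05).

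Ribosomal protein messages were among the most abundant in the cultures. Their counts made up 0.763% to 1.01% of all counts and 2.91% to 3.67% of all TPM (counts corrected for gene length and scaled to a common total) in a library. As a share of counts the group means were 0.892% ± 0.0206 in control, 0.884% ± 0.08 in glutamate, 0.91% ± 0.0508 in zinc and 0.902% ± 0.0721 in TPA (SD, n = 5). The spread within the stimulated groups was larger than any difference between these means. Of the 82 members, 71 averaged at least 100 TPM over the 20 libraries. The median member was at 393 TPM, against 22.1 TPM for the median tested gene.

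The ribosome holds nearly all of its proteins in equal number. Their messages, as counted, differed 152-fold in TPM from the lowest tested member to the highest. The lowest was Rps27, which shares its annotated place with the Rps27rt row, so this range is uncertain. The highest was Rplp1, an acidic protein of the stalk that recruits elongation factors, at 1253 TPM on average. Rpl41, a very small basic protein, followed at 1033 TPM, Rps15 at 1022 TPM, Rpl4 at 927 TPM and Rplp0, the base of the stalk, at 917 TPM. Rplp1 ranked first or second in every library and Rps15 between the first and the fourth place, so these positions held from culture to culture. Rplp2, the partner of Rplp1 in the stalk, averaged 465 TPM. At the low end, Rpl34 averaged 10.7 TPM, Rpl30 9.02 TPM and Rps27 8.24 TPM, and each kept a place from 78 to 80 in all libraries. Members with large-subunit symbols had a median of 352 TPM and those with small-subunit symbols 462 TPM, after the 4 non-standard genes were left out.

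**Figure D1:**
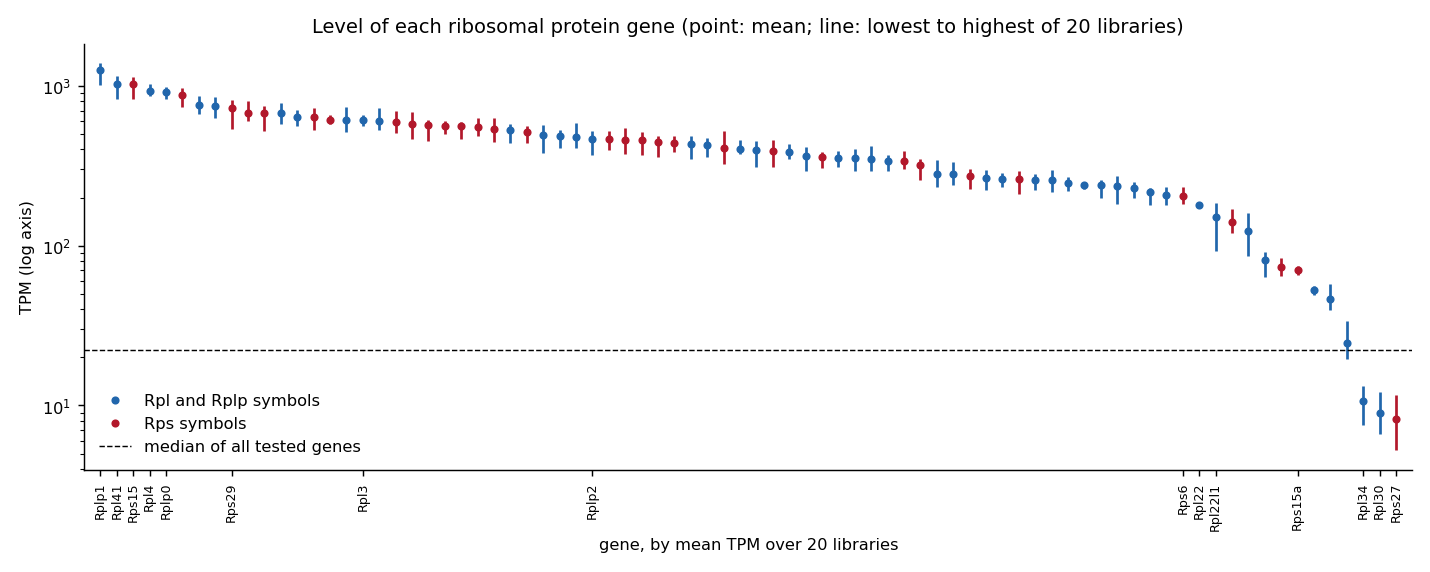
Level in TPM (log axis) of the 80 members with any counts, ordered by their mean, with some of the members named in the text labelled; points are means over 20 libraries and lines run from the lowest to the highest library. Most members lie above 100 TPM, and Rpl34, Rpl30 and Rps27 lie below the median of all tested genes (22.1 TPM, dashed).

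Several of these levels are uncertain, because ribosomal protein genes have many near-identical copies in the genome. In GENCODE M21, 44% of the 50-base stretches of the median member's reference transcript also occurred in transcripts of genes elsewhere, and for 34 of 82 members (41.5%) more than 50% did. Among 13800 other tested genes the median was 0% and 1.25% exceeded 50%. Over all annotated transcripts of a gene, a measure computed first, the member median was 19.8% and 6 members exceeded 50%. The reference transcript was adopted after those values had been seen. The share of annotated pseudogenes among the matching genes differed widely between members. It was 120 of 123 for Rpl7a and 71 of 71 for Rps2, but 6 of 520 for Rpl7l1 and 6 of 89 for Rps16. The sources used here do not say whether reads that fit several places were counted.

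The share of repeated sequence did not order the levels: its Spearman correlation with mean TPM across 82 genes was -0.039. Members with more than 50% repeated sequence had a median of 394 TPM and the others 393 TPM. Rps27, at 8.24 TPM, repeated 98.6% of its stretches, but Rpl3, a core protein near the catalytic centre of the large subunit, repeated 85.6% and averaged 608 TPM. Rpl30 and Rpl34, also near the bottom, repeated 29.8% and 37.9%. Rpl26, at 0 counts in every library, repeated 61%. A count of 0 allows up to 3 counts, which is 0.0733 to 0.105 CPM (counts divided by the scaled size of the library) across libraries and covers counting error only. What sets the low counts of these genes was not tested.

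The members varied together from library to library, more than they differed between treatments. After the group means were removed, 1 principal component held 60.8% of the variance of the 80 members over the 20 libraries and the second held 15.1%. The median correlation over 3160 pairs of members was 0.68, a description over 20 libraries that share their depth and preparation. Of the 80, 72 correlated above 0.5 with the mean of the rest and 24 above 0.9. The within-group SD of log2 CPM was 0.11 for the median member, against 0.071 for the median of 2317 other genes with at least 100 TPM.

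A few libraries carried this shared movement. In glutamate 3, all 80 members lay below their own mean over the 20 libraries, by a median of -0.26 on the log2 scale. In TPA 2, 77 of 80 lay below, with a median of -0.11, and in zinc 5, 62 lay below, with a median of -0.082. TPA 1 was the highest library, with 71 of 80 above and a median of 0.16, followed by glutamate 4 at 0.099 and zinc 4 at 0.09. The 5 control libraries lay between -0.019 and 0.05. The high and low libraries thus sat inside the same groups, and each stimulated group spanned more than the control group did.

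**Figure D2:**
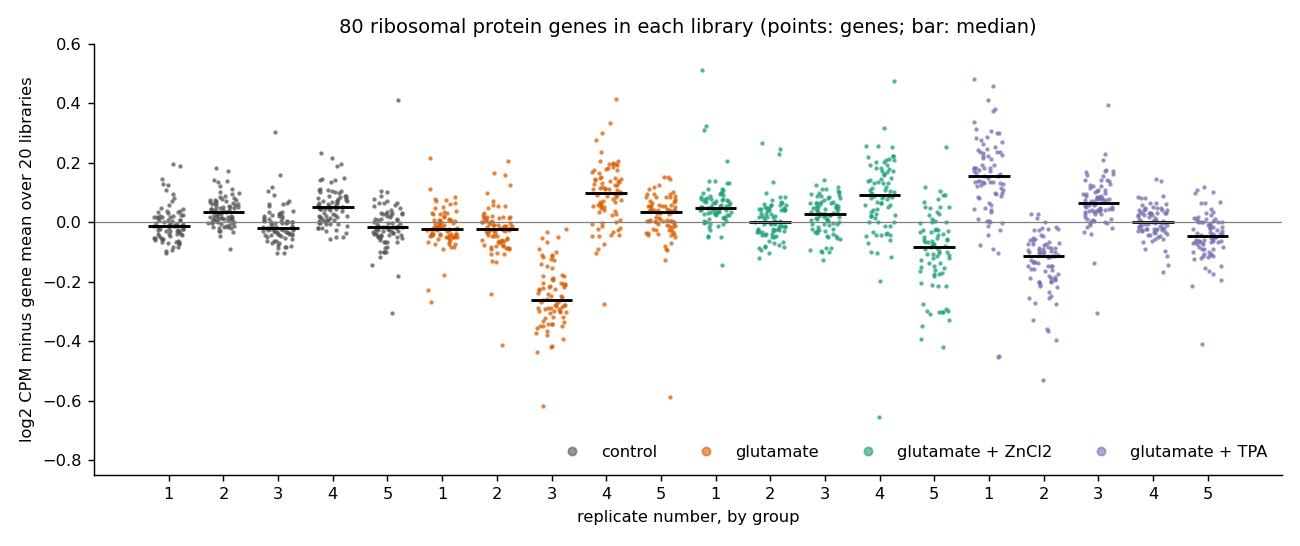
Log2 CPM of each of the 80 tested members minus its mean over 20 libraries, by library; points are genes and bars their median, coloured by group. All points of glutamate 3 lie below 0, while the medians of the control libraries stay between -0.019 and 0.05.

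The same libraries mostly stood high or low for other short genes and for the lists named below. Ribosomal protein genes are short, with a median annotated length of 706.5 bases against 3009 bases for all tested genes. In glutamate 3, 857 other genes under 1000 bases had a median of -0.127, 42 nuclear genes of oxidative phosphorylation -0.193, 77 mitochondrial ribosomal protein genes -0.125, and 17 translation factor genes with TOP messages -0.135. In TPA 1 the medians of those lists, in the same order, were 0.0873, 0.0679, 0.13 and 0.129. Genes of 4000 bases or more moved the other way, at 0.0427 in glutamate 3 and -0.0511 in TPA 1. The ribosomal protein median was larger in size than that of each of these lists in both libraries. It was also the largest in TPA 3 (0.0663) and glutamate 5 (0.033), but not in every library. In glutamate 4 it was 0.0992, below the 0.111 of the other short genes, the 0.123 of oxidative phosphorylation and the 0.131 of mitochondrial ribosomal proteins. In zinc 5 it was -0.0818, against -0.0842 for the other short genes and -0.132 for oxidative phosphorylation. In TPA 2 it was -0.114, against -0.141 for oxidative phosphorylation. The translation factor genes went the other way in zinc 5, at 0.0215. The part of transcript length or RNA quality in the shared movement was not tested.

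**Figure D3:**
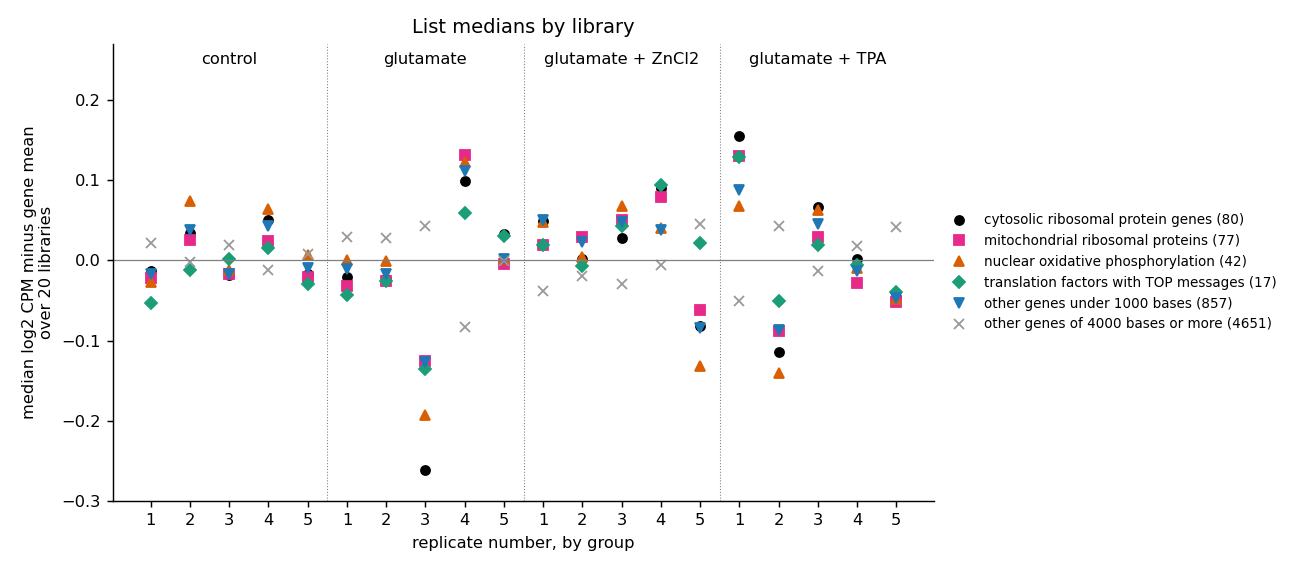
Median log2 CPM deviation from the mean over 20 libraries for 6 gene lists (number of tested genes in brackets), by library and group. The cytosolic ribosomal protein genes, other short genes, mitochondrial ribosomal protein genes and oxidative phosphorylation genes are all low in glutamate 3 and high in TPA 1 and glutamate 4, and genes of 4000 bases or more lie on the other side of 0 in those libraries.

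Not every member took part. Rpl31 and Rpl12, both of the large subunit, followed the mean of the other members most closely (r = 0.97 for each, over 20 libraries with group means removed). In the glutamate group Rpl31 measured 108, 110, 90.7, 122 and 111 CPM in libraries 1 to 5, low in glutamate 3 and high in glutamate 4. Rpl12 gave 142, 142, 119, 162 and 144 CPM in the same libraries, the same order of extremes. Rpl15, a large-subunit protein, went against the others (r = -0.32). Its zinc libraries read 147, 140, 153, 122 and 152 CPM, lowest in zinc 4, where the family as a whole stood high. In glutamate 3 Rpl15 had 135 CPM, inside the 131 to 146 CPM of its other glutamate libraries.

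Rpl22 and Rpl22l1 encode paralogs that can take the same place in the large subunit, and both stood apart from the family (r = 0.29 and -0.14). Rpl22 was among the steadiest members, between 141 and 156 CPM in all 20 libraries. Rpl22l1 was among the most variable, with zinc libraries at 29.4, 27.6, 24.3, 14.9 and 17.9 CPM. Its glutamate libraries read 27.3, 26.4, 22.5, 19.4 and 24.9 CPM and its TPA libraries 17.1, 23.1, 26.5, 22.6 and 25.5 CPM. The lowest libraries of Rpl22l1, namely zinc 4, TPA 1 and zinc 5, include 2 in which the family was high. Rpl34 (r = 0.16) completed the 4 least typical members, at 1.76 to 3.01 CPM. It had only 63 to 118 counts per library, so counting error weighs on it. Across the 80 members the within-group SD and gene length had a Spearman correlation of -0.55: shorter messages varied more.

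The first comparison asks how the cultures' ribosomal protein messages stood 90 min after glutamate. No member passed the threshold in glutamate over control, where 3 of all tested genes did (0.0208%). The members lay slightly lower on balance, 68 of 80 with a negative log2 fold change and a median of -0.03 (all tested genes: 51.1% negative, median 0.00). Nuclear genes of oxidative phosphorylation did so too, with 36 of 42 negative and a median of -0.03. Among other genes under 1000 bases, 490 of 857 were negative. Large-subunit genes had 38 of 46 negative and small-subunit genes 27 of 31, each with a median of -0.04. The smallest edgeR adjusted p was 0.95, no member had an unadjusted p under 0.05 (4.98% of all genes did), and DESeq2 and limma-voom called 0 members too. For 68 of 80 the 95% interval of the log2 fold change lay within 0.25 of 0.

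The negative balance rested on glutamate 3. Without that library the median was 0.02 and 55 of 80 members were positive. The group medians of the deviation were 0.0071 ± 0.033 in control and -0.035 ± 0.14 in glutamate (SD, n = 5), so the difference was well within the spread. Rpl30, a large-subunit protein, had the largest negative value: glutamate libraries at 1.57, 1.38, 1.41, 1.98 and 1.75 CPM against control libraries at 1.91, 1.74, 2.01, 1.77 and 2.48 CPM. The groups overlapped, with 50 to 97 counts per library behind these values (log2 fold change -0.29, SE 0.16, edgeR adjusted p = 0.95). Rpl23a, at the tunnel exit of the large subunit, had -0.10 (SE 0.06) and Rpl13a -0.11 (SE 0.07). For Rpl13a the library glutamate 3, at 116 CPM, lay far under the other glutamate libraries at 145 to 161 CPM.

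Zinc added with glutamate was compared with glutamate alone, and again no member passed, as no gene of the whole table did (0%). Here 62 of 80 members were positive (all tested genes: 50.3%), with a median of 0.05. Only 1 member had an unadjusted p under 0.05 (5.98% of all genes did). DESeq2 and limma-voom called 0 members. Without glutamate 3 the median was 0.00 and 39 members were positive. Rpl10, a late-joining large-subunit protein, had the smallest p. It measured 117, 112, 113, 112 and 100 CPM with zinc against 103, 104, 97.3, 110 and 101 CPM with glutamate alone. Zinc 5 lay among the glutamate libraries and the other 4 above them (log2 fold change 0.11, SE 0.05, edgeR adjusted p = 0.831). Rps27 had 0.36 (SE 0.18), on 35 to 84 counts per library.

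With TPA, which removes zinc ions, the members again compared with glutamate alone lay slightly higher. Here 69 of 80 were positive (all tested genes: 51.3%), with a median of 0.04. None passed, as no gene of the whole table did (0%). One member, Rps15a of the small subunit, had an unadjusted p under 0.05, against 7.15% of all genes, and DESeq2 and limma-voom called 0 members. Without glutamate 3 the median turned to -0.01 with 31 positive. Both comparisons share the glutamate libraries, so their common direction is no separate observation. Rps2, a small-subunit protein at the messenger entry, had 0.11 (SE 0.06) and Rpl30 0.30 (SE 0.16).

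**Figure D4:**
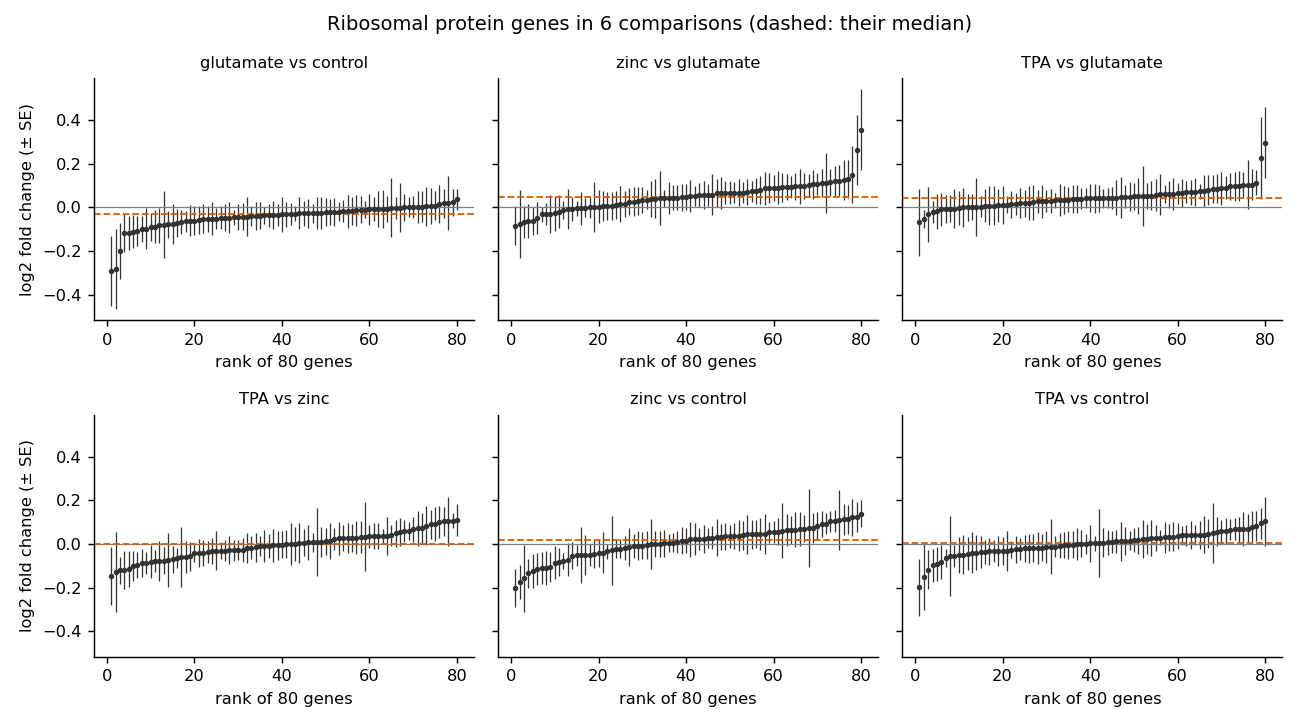
Log2 fold change (point) and standard error (line) of the 80 tested members in each of 6 comparisons, ordered within each panel, with their median as a dashed line. No member passed the threshold in edgeR; glutamate vs control has 68 negative values and both comparisons with glutamate alone have mostly positive ones, and all 3 share the glutamate libraries.

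The direct comparison of TPA with zinc sets chelated against added zinc. Its fold changes contrast these groups only, while the filter, scaling and spread came from all 20 libraries. The members split evenly, 39 positive and 41 negative, with a median of 0.00. No member passed, where 74 of all tested genes did (0.513%), and 1 member had an unadjusted p under 0.05 against 16% of all genes. That member was Rps15a. It measured 126, 122, 128, 120 and 122 CPM with TPA and 122, 113, 112, 116 and 112 CPM with zinc. The TPA libraries lay at or above 120 CPM, and 4 of the 5 zinc libraries lay under them, with zinc 1 among them.

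The log2 fold change of Rps15a was 0.11 (SE 0.03, a 1.08-fold difference), with an edgeR adjusted p of 0.13. DESeq2 on the same counts gave 0.11 (SE 0.035, adjusted p = 0.048), so this member was called by that tool only, and limma-voom called 0. In the authors' deposited table, written as zinc relative to TPA, its log2 fold change was -0.10 with an adjusted p of 0.0502. In control it measured 121, 121, 119, 121 and 125 CPM and with glutamate alone 122, 112, 115, 116 and 123 CPM, so the zinc and TPA groups lay on either side of, but overlapping, the glutamate group. Rps15a followed the family weakly (r = 0.40) and repeated only 6.37% of its 50-base stretches elsewhere. Its annotated length, 5134 bases, is long for a member and lowers its TPM, which averaged 70.

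Rps6, the small-subunit protein that S6 kinases phosphorylate when neurons are active, was the next member by p in TPA against zinc (-0.12, SE 0.06, edgeR adjusted p = 0.338). Its zinc libraries read 103, 99, 103, 107 and 97 CPM and its TPA libraries 109, 85.2, 92.6, 95.2 and 85.8 CPM. TPA 1 lay above all zinc libraries and the other 4 TPA libraries below them. Rplp1, at 0.10 (SE 0.06), and Rps4x, the X-linked small-subunit gene, at 0.06 (SE 0.04), lay on the other side.

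Against control, glutamate with zinc gave 47 positive and 33 negative members with a median of 0.02. None passed, where 6 of all tested genes did (0.0416%). Here 6 members (7.5%) had an unadjusted p under 0.05, against 11.1% of all genes. Rps29, a small zinc-binding protein of the small subunit, measured 96, 90.4, 90, 92.3 and 69.6 CPM with zinc and 102, 106, 99.1, 103 and 95 CPM in control. The groups overlapped only in that zinc 1 exceeded control 5, and zinc 5 was the lowest of all (log2 fold change -0.20, SE 0.09, edgeR adjusted p = 0.421). Rpl39, which lines the exit tunnel, had -0.17 (SE 0.08), Rplp1 -0.14 (SE 0.06) and Rps15a -0.08 (SE 0.03). Rps6 had 0.14 (SE 0.06, edgeR adjusted p = 0.424) and Rpl4, at the tunnel wall, 0.10 (SE 0.05).

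For 3 of the 80 members (3.75%) the zinc and control libraries did not overlap, beside 2.66% of all tested genes, and all 3 were higher with zinc. They included Rps6, with control at 91.6, 93.1, 92.2, 93.3 and 91.9 CPM, and Rpl6, a large-subunit gene named after its values were seen. Rpl6 lay at 160 to 170 CPM with zinc and 151 to 159 CPM in control. The share of members was near that of all genes. Leaving out zinc 4 turned the median of this comparison to -0.01, with 35 of 80 positive. DESeq2 and limma-voom called 0 members.

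Glutamate with TPA against control gave 43 positive and 37 negative members with a median of 0.00. No member passed, where 10 of all tested genes did (0.0694%), and none had an unadjusted p under 0.05 (3.09% of all genes did). DESeq2 and limma-voom called 0 members. The 3 smallest p-values belonged to Rpl7l1 (-0.06, SE 0.04), Rpl34 (-0.20, SE 0.13) and Rpsa, a small-subunit protein also known as the laminin receptor (0.09, SE 0.07). Rpsa measured 397, 309, 341, 336 and 327 CPM with TPA and 309, 331, 321, 329 and 311 CPM in control. Only TPA 1 stood well above the control range. For 70 of 80 members the 95% interval lay within 0.25 of 0.

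**Figure D5:**
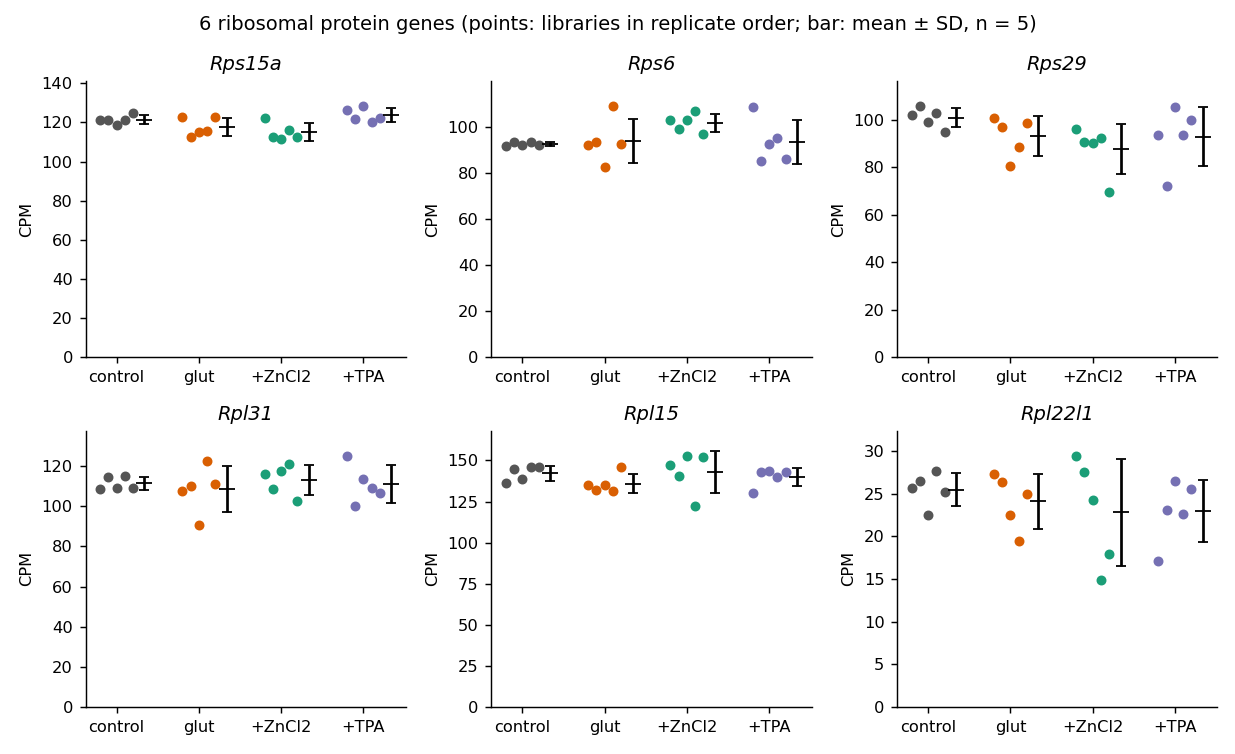
CPM of 6 members in every library, by group (points in replicate order; bars are mean ± SD, n = 5). The TPA libraries of Rps15a lie at or above 120 CPM, control libraries of Rps6 lie close together below those with zinc, and Rpl31 is low in glutamate 3 while Rpl15 is not.

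Among the stalk proteins, Rplp0 averaged 408 ± 8.56 CPM in control, 408 ± 31.3 in glutamate, 423 ± 13 in zinc and 420 ± 23.4 in TPA (SD, n = 5). Rplp1 averaged 203 ± 8.12, 193 ± 18, 185 ± 15.9 and 199 ± 14.9 CPM in the same groups, and its difference between zinc and control is the one given above. Rplp2 averaged 70.9 ± 2.53, 67 ± 8.55, 65.7 ± 6.5 and 69 ± 5.98 CPM. For these 3 genes every stimulated group was more spread than control. Rpl3 averaged 275 ± 10.8, 270 ± 13.7, 276 ± 8.55 and 278 ± 16.6 CPM. Rps27a, made as a fusion with ubiquitin, averaged 75.1 ± 4.33, 72.4 ± 7.37, 77.1 ± 3.88 and 75 ± 4.24 CPM. None of these 5 genes passed in any comparison.

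Genes linked to the ribosome but outside the symbol rule were read from fixed lists. Fau and Gnb2l1 (Rack1) encode ribosomal proteins under other names, at 263 and 542 TPM, and neither passed in any comparison. Of the symbols ending in l, Rpl36al averaged 176 TPM, Rps27l 63.4 TPM and Rps4l 48.1 TPM, and Rpl3l and Rpl39l were under 1 TPM. Rpl10l was listed at 0 counts.

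Of 17 translation factor genes with TOP messages, 0 passed in any of the 6 comparisons. Their median log2 fold change was -0.01 for glutamate over control. For zinc over glutamate it was 0.06, with 15 of 17 positive (all tested genes: 50.3%). In TPA over glutamate 15 of 17 were positive too (all tested genes: 51.3%), and both comparisons share the glutamate libraries. The list's median in glutamate 3 was -0.135, and the part of that library was not tested. In zinc over glutamate, Btf3, which binds nascent chains, had 0.11 (SE 0.05, edgeR adjusted p = 0.776) and Npm1, a nucleolar chaperone, 0.10 (SE 0.05, edgeR adjusted p = 0.786). Of 14 genes that control TOP messages, 0 passed. The smallest p among them belonged to Eif4ebp1, an inhibitor of translation initiation, in TPA against zinc (-0.52, SE 0.18, edgeR adjusted p = 0.163). Of 10 Rps6k genes, 12 tested genes of ribosome surveillance and assembly, and 10 tested chaperones and import factors of ribosomal proteins, 0 passed in any comparison. In TPA against zinc, Rpf2, an assembly factor for the 5S particle, had -0.16 (SE 0.05, edgeR adjusted p = 0.0989), and Zfp598, a sensor of collided ribosomes, 0.13 (SE 0.04, edgeR adjusted p = 0.119).

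In bulk RNA of a culture, a lower level cannot be told apart as fewer cells of a type or less RNA per cell. The levels are shares of all polyadenylated RNA in a library, so a common change of all messages would not be seen.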

How the data were processed

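The deposited counts are whole numbers for 24419 genes and 20 libraries, made by the authors with Trimmomatic 0.36, HISAT2 2.1.0, SAMtools 1.3.1 and featureCounts on mm10, per the submitters' processing notes. Libraries were stranded, per the labels' protocols; the strand setting of the counting was not given in the sources used here; reads of antisense genes may thus be shared. The deposited TPM are the counts divided by the deposited gene length and rescaled, checked to within 5e-07. The authors' deposited DESeq2 1.14.1 tables hold, per the file headers, a score (the Wald statistic), a p-value, its adjusted form, a log2 fold change, and a mean signal over libraries, and were only quoted.

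Counts were filtered with filterByExpr, scaled by TMM and fitted in edgeR 4.0.16 (R 4.3.3) as 1 quasi-likelihood model of 4 group means over 20 libraries, with Benjamini-Hochberg adjustment over 14411 genes and a threshold of 0.05. Robust estimation was chosen after fits with and without it had been seen. Log2 CPM used a prior count of 2. "Passed", "rose" and "called" refer to that threshold. DESeq2 1.42.0, limma-voom (limma 3.58.1), other scalings and filters, the replicate block, 2 groups alone and each library left out were alternatives, and leaving out glutamate 3 and TPA 1 together and dropping robust estimation were added after seeing the data. The fit was tested on simulated data.

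The members, lists and rules were chosen with earlier results of these data known. Named members were fixed by role, the 5 highest and 5 lowest by TPM, the 3 smallest p-values per comparison, and the 4 least and 2 most like the rest. From other lists the genes with the smallest p are named. Some genes that these rules take are not reported here. Depth was 28692470 to 40934630 counts per library. Same-numbered libraries had a median r of 0.0564, against -0.0205 for other pairs, and r was over 0.1 in 11 of 30 same-numbered pairs. The numbers are not stated to mark a shared batch, so they were not taken as pairs.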

Additional observations from a re-analysis of the deposited data

Results flagged for a closer look

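In 4 of 120 sets of 5 libraries examined (the tested named members, the members' median and their share of counts, in 4 groups), 1 library lay far from the others by Dixon's test; chance gives about 1 in 20. Rps29 had 69.6 CPM in zinc 5, where the other zinc libraries lay between 90 and 96 CPM. Rpl13a had 160 CPM in zinc 4 against 137 to 143 CPM in the other zinc libraries. Rpl15 and Rpl22 were both high in glutamate 5, Rpl15 at 146 CPM against 131 to 135 CPM and Rpl22 at 156 CPM against 144 to 147 CPM.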

How the results depend on the processing

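No member was called in any of the 6 comparisons under any alternative, including each of the 20 libraries left out, except that DESeq2 called 1 member in TPA vs zinc (Rps15a, log2 fold change 0.11, adjusted p 0.048). With the replicate block the count of members called was 0 in all 6, and the numbers were not shown to pair the libraries (same-number r from -0.07 to 0.497, median 0.0564); over all genes the block called 422 in TPA vs zinc and 39 in zinc vs control. Without robust estimation edgeR called 6 genes rather than 3 in glutamate vs control, and 0 members. Over all genes in TPA vs zinc, DESeq2 called 481, 2 groups alone 6, library size alone 37, no filter 41, and leaving out 1 library 5 (zinc 3) to 899 (zinc 4); in zinc vs control DESeq2 called 65 and leaving out 1 library 3 to 100 (zinc 4). DESeq2 called 14 genes in glutamate vs control. Leaving out 1 library moved the members' median log2 fold change from -0.069 to 0.018 in glutamate vs control, -0.0047 to 0.086 in zinc vs glutamate, -0.012 to 0.07 in TPA vs glutamate, -0.045 to 0.029 in TPA vs zinc, -0.0063 to 0.049 in zinc vs control and -0.03 to 0.034 in TPA vs control. Without both glutamate 3 and TPA 1 the median of TPA vs glutamate was -0.048, with 14 of 80 positive. Members with few counts (Rps27, Rpl30, Rpl34) are limited by depth. The cause of these differences was not tested.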
